A study of Caenorhabditis elegans with 12 samples.

Results

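The daf-2 mutant was compared with N2, the wild-type laboratory strain of Caenorhabditis elegans, using 6 of the 12 libraries of the study, 3 of each genotype. All 6 carry both spr genes in the wild-type state as far as the labels say, and the labels name no daf-2 allele. The libraries were chosen by their column names in the count table. Each came from whole worms: 100 animals pooled per sample, kept at 20 °C and taken 24 h past the L4 larval stage, which the labels call day 2 (of what is not stated). The labels name no drug or other treatment. The remaining 6 libraries, 3 labelled spr-4;spr-3 and 3 labelled spr-4;spr-3;daf-2, hold the same contrast in another genetic background and are used only where that is said. The labels call the samples biological replicates. A strain difference other than daf-2, or a difference in developmental timing, cannot be told apart from an effect of the mutation in this design.

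daf-2 encodes the worm's insulin/IGF-1 receptor. Insulin-like peptides bind it, and it signals through the phosphoinositide 3-kinase AGE-1 to the kinases PDK-1, AKT-1 and AKT-2, which keep the FOXO transcription factor DAF-16 out of the nucleus. When the receptor is weakened DAF-16 enters the nucleus, and daf-2 mutants are known for long life, stress resistance, fat storage, altered reproduction and, with stronger loss, entry into the dauer stage.

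The 6 libraries held 32137430 to 48894725 counts each, and 15764 of the 46739 genes in the table had enough reads to be tested. This filter took in all 12 libraries, so a gene with few reads could pass through 1 genotype alone. Counts of calls and medians of lists with many such genes therefore depend partly on the filter. Values below are in CPM, a gene's count scaled to a common library size, after TMM scaling, which assumes that most genes are unchanged. A gene was called when its adjusted p in edgeR's quasi-likelihood test was below 0.05, and "rose" or "fell" is used of called genes only. Log2 fold changes are daf-2 against N2 and carry a standard error (SE). Values per library are in the order of replicates 1 to 3. Ribosomal RNA took 0.0391 ± 0.00381% of counts in N2 and 0.166 ± 0.0158% in daf-2 (SD, n = 3), and no list count below moved by over 1.5 times when those genes were left out of the fit.

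The daf-2 gene itself (WBGene00000898; WBcel235 chromosome III, 2994514 to 3040846, minus strand) had 92.7, 96.3 and 95.0 CPM in N2 and 76.3, 95.5 and 87.9 CPM in daf-2. The groups overlapped, and the difference did not pass (edgeR log2 fold change -0.13 ± 0.064, adjusted p = 0.0979). It was called lower when daf-2 replicate 2 was left out (-0.18, edgeR adjusted p = 0.0118), with total counts as the only scaling (0.0281) and without a filter (0.0206). Read counts over the whole gene need not show a mutation that leaves the transcript in place, so they neither check nor contradict the label.

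Marker genes of the tissues a worm holds were read next. Of all genes tested 27.4% were called higher and 26.9% lower, so a few calls in a small set are no result by themselves. Of 34 sperm markers 30 were tested and all 30 fell, and their summed level was 179 to 254 CPM in the N2 libraries and 8.54 to 12.8 CPM in daf-2. Of 5 markers of the moulting hypodermis 4 fell (81.1 to 99.4 CPM against 44.1 to 50.3 CPM), and of 7 zygotic embryo markers 5 rose (3.93 to 4.95 CPM against 6.18 to 8.77 CPM). Pharynx markers fell in 3 of 3 (123 to 135 CPM against 52.1 to 57.5 CPM) and oocyte markers in 3 of 4 (1961 to 2078 CPM against 1639 to 1719 CPM). The 5 intestine markers, 2 up and 2 down, held 28866 to 33325 CPM against 33612 to 37347 CPM, nearly all of it vit-2. Body wall muscle markers fell in 1 of 3 (2019.9 to 2158 CPM against 1617 to 1890 CPM), and neuron markers rose in 3 of 5 and fell in 1 (242 to 250.4 CPM against 286 to 298 CPM). The neuron markers include the neuropeptide convertase gene egl-3. The list of 24 pan-neuronal and synaptic vesicle genes had 5 rises and 6 falls. Its share was 0.0683 ± 0.000973% of counts in N2 and 0.0665 ± 0.00257% in daf-2 (SD, n = 3). Of the 34 sperm markers, 2 had no read in daf-2, and every other marker of the 8 sets had reads in each group. In whole worms, fewer cells of a type and less RNA per cell cannot be told apart.

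In all, 8560 genes (54.3% of those tested) were called, 4319 higher in daf-2 (27.4%) and 4241 lower (26.9%). Of these, 1342 rose by over 2-fold (8.51%) and 1337 fell by over 2-fold (8.48%). The median log2 fold change of all genes tested was 0.00. These shares are the background against which each gene list below is read, and a list with shares near them is no result about its members. Of 45 genes given library by library, 43 had groups that did not overlap, against 59.3% of all genes tested. These genes were picked with their values in view, so nothing is read from that count.

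**Figure D1:**
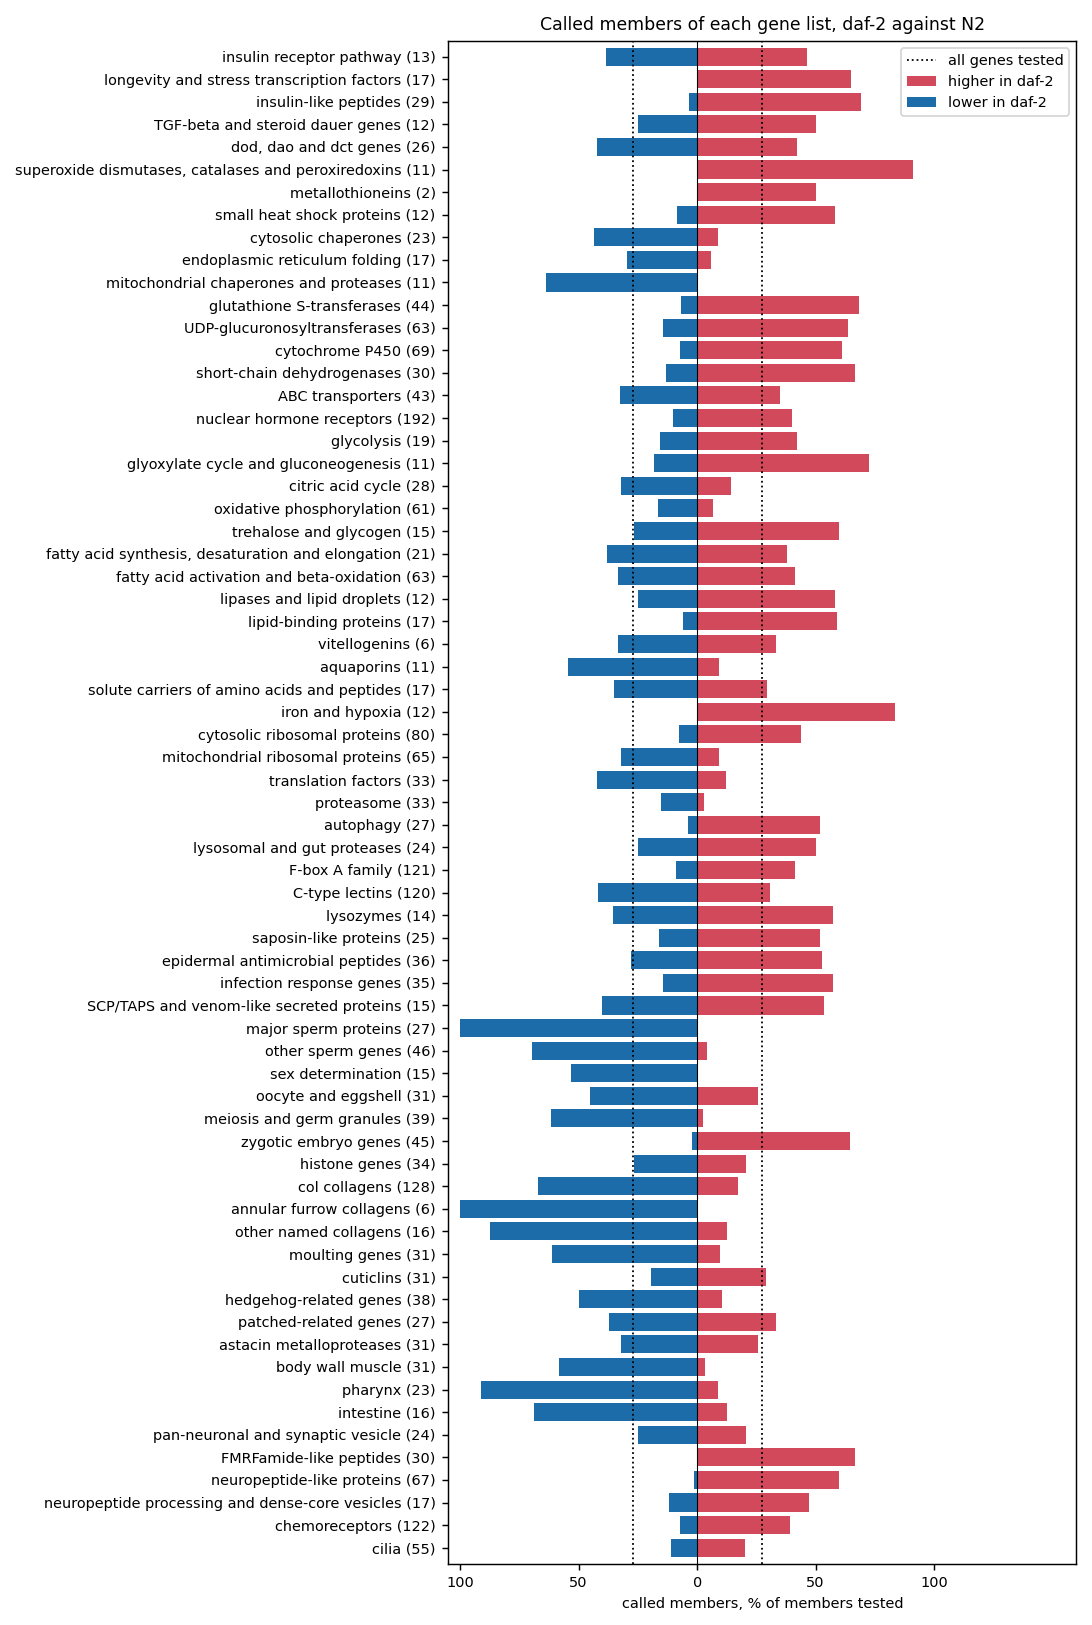
Share of the tested members of each of 67 gene lists called higher (red, to the right) or lower (blue, to the left) in daf-2 than in N2, in percent, with the number tested in brackets; the dotted lines mark all genes tested, 27.4% higher and 26.9% lower. Major sperm proteins and annular furrow collagens reach 100% lower, and superoxide dismutases, catalases and peroxiredoxins 90.9% higher.

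The signalling genes downstream of the receptor moved in both directions. Of 13 measured members of the insulin receptor pathway, 6 rose and 5 fell, with a median log2 fold change of -0.04, and with total counts as the only scaling the split was 5 and 6. The kinase gene akt-2 (X, 14147700 to 14152070) had 13.4, 13.6 and 15.2 CPM in N2 and 39.2, 36.4 and 34.4 CPM in daf-2. Every daf-2 library was above every N2 library (edgeR log2 fold change 1.38 ± 0.1, adjusted p = 2.77e-08). ist-1, an insulin receptor substrate homologue, had 5.08, 5.15 and 4.74 CPM in N2 and 9.28, 9.22 and 10.9 CPM in daf-2, again with no overlap (edgeR log2 fold change 0.97 ± 0.11, adjusted p = 1.46e-07). pdk-1, whose kinase activates AKT, had 11.2, 11.1 and 10.6 CPM in N2 and 17.3, 17.9 and 21.1 CPM in daf-2 (edgeR log2 fold change 0.77 ± 0.079, adjusted p = 3.51e-08). These 3 genes all lie on the X chromosome. The 14-3-3 gene ftt-2 rose by 0.42 ± 0.041, akt-1 by 0.26 ± 0.036 and the adaptor gene aap-1 by 0.12 ± 0.04, the last not called without N2 replicate 1 (edgeR adjusted p = 0.0735) or with total counts as the only scaling (0.156). Per length, akt-1 had 97.1 CPM per kilobase of exon in N2 and 116 in daf-2, and akt-2 5.91 CPM per kilobase of exon in N2 and 15.4 in daf-2.

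The falls in the pathway were small. sgk-1, a kinase related to AKT, was at -0.22 ± 0.069, pptr-1, a phosphatase subunit that counteracts AKT-1, at -0.21 ± 0.052, and age-1 at -0.16 ± 0.039 on the log2 scale; sgk-1 was not called without daf-2 replicate 2 (edgeR adjusted p = 0.134). daf-16 (I, 10750498 to 10776703), the FOXO gene, had 153, 149 and 147 CPM in N2 and 124, 142 and 135 CPM in daf-2. Its groups did not overlap, but the step was only -0.17 ± 0.048 (edgeR adjusted p = 0.00612) and was not called without daf-2 replicate 1 (0.065). The other 14-3-3 gene, par-5, had a log2 fold change of -0.04 (edgeR adjusted p = 0.48).

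Transcription factors known from lifespan and stress work rose in 11 of 17 and fell in none, with a median of 0.14; with total counts as the only scaling 7 rose and 1 fell, and without daf-2 replicate 3 there was 1 fall. The largest were nhr-62 (1.53 ± 0.096), a nuclear receptor needed for longevity under dietary restriction, and pqm-1 (0.93 ± 0.078), a zinc-finger factor that acts on genes lowered in daf-2 mutants. pha-4, the FoxA factor, rose by 0.35 ± 0.1, mxl-2, a partner in the Myc-like network, by 0.33 ± 0.058, and xbp-1, the transcription factor of the unfolded protein response, by 0.33 ± 0.043.

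Genes of the ligands rose more often than they fell. Of 29 tested insulin-like peptide genes 20 rose and 1 fell, with a median log2 fold change of 0.83. Another 10 had too few reads to be tested, and a member nearly absent from N2 could pass the filter only through another genotype. All members together took 0.00396 ± 8.13e-05% of all counts in N2 and 0.00705 ± 0.000139% in daf-2 (SD, n = 3). ins-25 had 1 read in the 3 N2 libraries together and 28 in daf-2, a ratio of 29.8 with a 95% counting interval of 4.92 to 1218. ins-10 had 0.159, 0.211 and 0.188 CPM in N2 and 2.84, 2.99 and 3.7 CPM in daf-2, every daf-2 library being far above every N2 library (edgeR log2 fold change 4.09 ± 0.24, adjusted p = 5.41e-12). ins-23 rose by 3.90 ± 0.23, ins-22 by 2.69 ± 0.18 and ins-29 by 2.02 ± 0.21. ins-7, a peptide known to activate the receptor, was the 1 member that fell. It had 3.1, 4.34 and 3.85 CPM in N2 and 2.35, 2.93 and 3.15 CPM in daf-2, the groups overlapped, and the call (edgeR log2 fold change -0.41 ± 0.16, adjusted p = 0.039) was lost without daf-2 replicate 1 or 2, without N2 replicate 2 or 3 and in limma-voom (edgeR adjusted p = 0.202, 0.0729, 0.187 and 0.104, limma adjusted p = 0.0613).

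The other 2 dauer-regulating systems, the TGF-beta pathway and steroid hormone synthesis, had 6 of 12 members up and 3 down. The SMAD genes daf-8 (0.66 ± 0.081) and daf-14 (0.52 ± 0.072) rose, as did ncr-2 (0.52 ± 0.16), a homologue of the cholesterol transporter NPC1. daf-36, the oxygenase of the first step from cholesterol towards dafachronic acid, fell (-0.60 ± 0.083), din-1, a corepressor bound to the steroid receptor DAF-12, was at -0.28 ± 0.056, and the receptor gene daf-1 at -0.21 ± 0.064. The dod, dao and dct genes, which were named in earlier work for their dependence on daf-2 and daf-16 and are therefore not an independent set, were 11 up and 11 down of 26. dod-3 (3.61 ± 0.15), dct-8 (3.36 ± 0.23) and dao-6 (2.66 ± 0.34) rose, dao-4 had 97 reads in the 3 N2 libraries together and 3 in daf-2, a ratio of 30.4 with a 95% counting interval of 10.1 to 150, and dod-24 (-3.27 ± 0.084) and dct-9 (-2.70 ± 0.77) fell.

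Antioxidant enzymes were the list with the highest share of rises among those with at least 10 tested members. Superoxide dismutases, catalases and peroxiredoxins rose in 10 of 11 (median 0.54). sod-3 (X, 17092753 to 17094306), a mitochondrial manganese superoxide dismutase and a long-used reporter of DAF-16, had 3.1, 3.13 and 3.26 CPM in N2 and 28.3, 25.9 and 23.9 CPM in daf-2, an 8.23-fold step with little spread (edgeR log2 fold change 3.04 ± 0.11, adjusted p = 1.51e-14). The cytosolic sod-5 rose by 1.66 ± 0.44, and the catalase genes ctl-3, ctl-2 and ctl-1 by 0.89 ± 0.12, 0.70 ± 0.044 and 0.60 ± 0.14. The metallothionein gene mtl-1, whose product binds heavy metals, had 12.9, 11.4 and 11.5 CPM in N2 and 103, 99.9 and 98.5 CPM in daf-2 (edgeR log2 fold change 3.07 ± 0.17, adjusted p = 4.42e-07). Its paralogue mtl-2 had 190.2 ± 9.2 CPM in N2 and 189.8 ± 13.4 CPM in daf-2 (SD, n = 3), a log2 fold change of 0.00 (edgeR adjusted p = 0.962).

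Iron handling and the hypoxia response rose in 10 of 12 members and fell in none. The ferritin gene ftn-1 had 7.36, 7.11 and 8.96 CPM in N2 and 72.7, 57.7 and 61.1 CPM in daf-2 (edgeR log2 fold change 3.03 ± 0.15, adjusted p = 3.58e-08), nhr-57, a target of the hypoxia factor HIF-1, rose by 1.77 ± 0.17, the metal transporter gene smf-3 by 0.70 ± 0.14 and the heme transporter gene hrg-1 by 0.44 ± 0.081.

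Chaperone genes moved in both directions. Of 12 small heat shock protein genes, 7 rose against 1 that fell, and their share of reads was 0.111 ± 0.00269% of all counts in N2 and 0.221 ± 0.0146% in daf-2. hsp-12.6 (1.95 ± 0.21) and hsp-12.3 (1.63 ± 0.2) rose most, hsp-12.2 fell (-0.88 ± 0.074), and sip-1, the most abundant of them, had 903, 863 and 859.5 CPM in N2 and 2167, 1956 and 1817 CPM in daf-2 (edgeR log2 fold change 1.18 ± 0.059, adjusted p = 6.39e-13). The inducible chaperone gene hsp-70 had 5.0, 4.31 and 5.22 CPM in N2 and 29.4, 23.7 and 29.9 CPM in daf-2 (edgeR log2 fold change 2.51 ± 0.2, adjusted p = 3.56e-06). It was 1 of the rises among cytosolic chaperones, which fell in 10 of 23 and rose in 2, with the chaperonin subunits cct-3 and cct-8 at -0.43 ± 0.047 and -0.35 ± 0.043; without daf-2 replicate 2 there were 4 rises and without daf-2 replicate 3 there were 5. Mitochondrial chaperones and proteases fell in 7 of 11. hsp-60, the mitochondrial chaperonin, had 344, 275 and 299.7 CPM in N2 and 158, 127 and 143 CPM in daf-2, every daf-2 library being below every N2 library (edgeR log2 fold change -1.10 ± 0.14, adjusted p = 0.000124). spg-7, a mitochondrial protease, was at -0.46 ± 0.039 and hsp-6, the mitochondrial Hsp70, at -0.30 ± 0.041. Folding factors of the endoplasmic reticulum fell in 5 of 17 (3 without daf-2 replicate 2, 8 with total counts as the only scaling). That is 29.4%, near the 26.9% of all genes tested, with pdi-6 lowest at -0.30 ± 0.046. They rose in 1 (2 without daf-2 or N2 replicate 3), pek-1 at 0.31 ± 0.073, or 5.88% against 27.4%.

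Detoxification enzymes rose more often than they fell in each of 4 families. Glutathione S-transferases rose in 30 of 44 and fell in 3, UDP-glucuronosyltransferases in 40 of 63 and 9, cytochromes P450 in 42 of 69 and 5, and short-chain dehydrogenases in 20 of 30 and 4; the 5 cytochrome P450 falls became 3 without daf-2 replicate 1 or 2 or N2 replicate 1. Medians were 0.54, 0.34, 0.47 and 0.32. gst-29 had 3.51, 3.31 and 4.65 CPM in N2 and 22.8, 18.9 and 16.9 CPM in daf-2 (edgeR log2 fold change 2.36 ± 0.17, adjusted p = 9.3e-08). ugt-27 had 0.774, 0.512 and 0.996 CPM in N2 and 6.19, 6.73 and 6.16 CPM in daf-2 (edgeR log2 fold change 3.04 ± 0.2, adjusted p = 2.49e-10). cyp-13A11 had 1 read in the 3 N2 libraries together and 216 in daf-2, a ratio of 229.7 with a 95% counting interval of 40.8 to 9114. cyp-35B2 rose by 3.32 ± 0.34, and its neighbour in name cyp-35B1 had 2.18, 2.23 and 3.2 CPM in N2 and 26.8, 25.0 and 20.0 CPM in daf-2 (edgeR log2 fold change 3.25 ± 0.23, adjusted p = 8.72e-07). Not every member followed: cyp-13A2 (-2.06 ± 0.17), cyp-13A7 (-1.51 ± 0.21), ugt-30 (-1.26 ± 0.16) and dhs-16 (-1.81 ± 0.25), a steroid hormone dehydrogenase, fell. ABC transporters were divided, 15 up and 14 down of 43, and 13 and 14 without N2 replicate 1 or with total counts as the only scaling. The main shares were 34.9% and 32.6%, against 27.4% and 26.9% of all genes tested. The largest rise, pgp-7 (1.48 ± 0.49), was not called without daf-2 replicate 2 or N2 replicate 2 (edgeR adjusted p = 0.145 and 0.0546) and stood at 2.17 without N2 replicate 1. The falls were largest in the white-related genes wht-5 (-3.69 ± 0.59; -5.16 without daf-2 replicate 1) and wht-4 (-3.34 ± 0.62; -4.0 without daf-2 replicate 3). Nuclear hormone receptors, many of which regulate such enzymes, rose in 77 of 192 and fell in 20 (13 without daf-2 replicate 1).

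**Figure D2:**
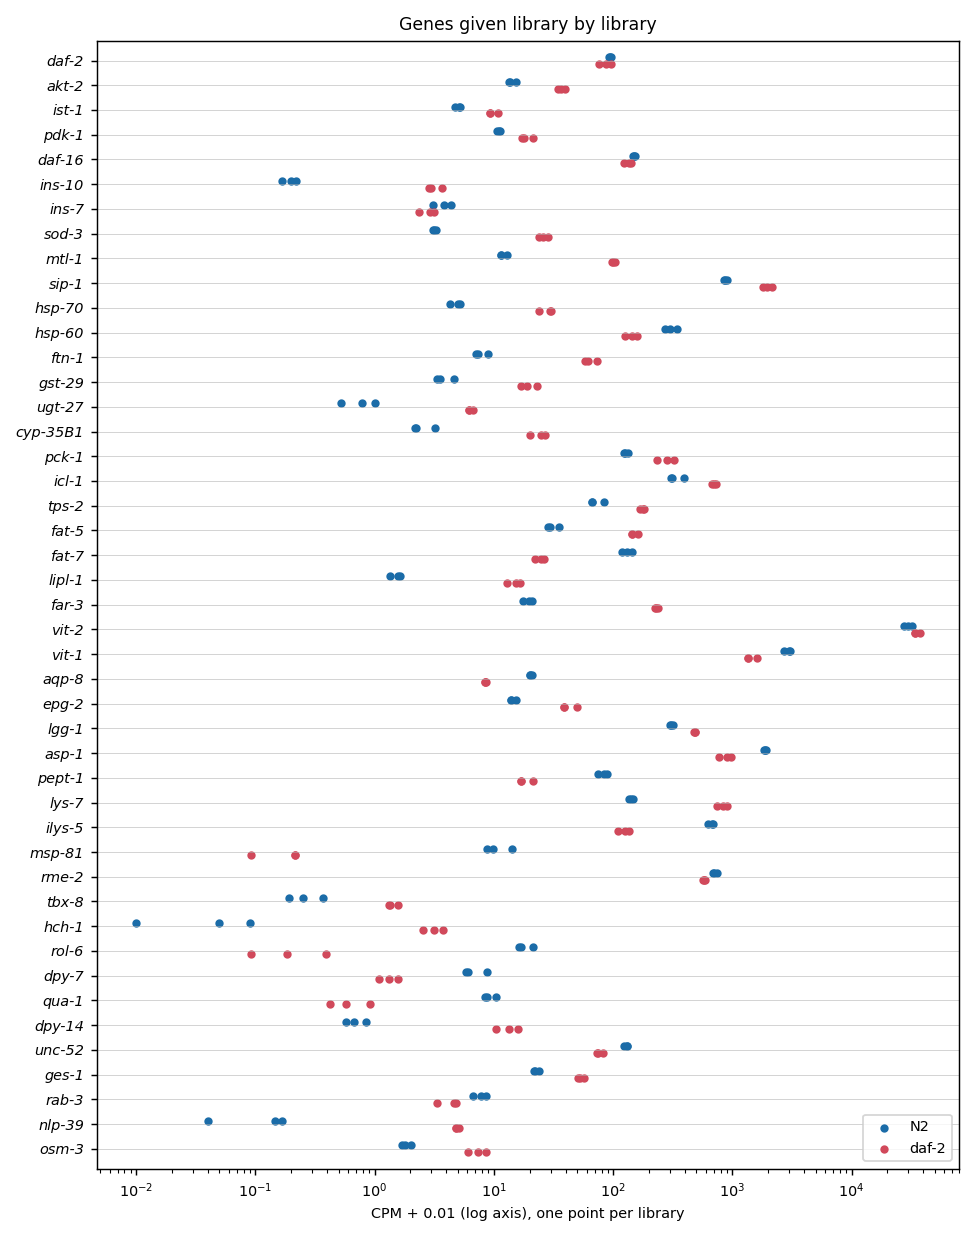
Level of each of the 45 genes given library by library, as CPM plus 0.01 on a log axis, with 1 point for each of the 3 N2 (blue) and 3 daf-2 (red) libraries. For sod-3 the N2 points lie at 3.1 to 3.26 CPM and the daf-2 points at 23.9 to 28.3 CPM, and for daf-2 itself the points overlap.

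Carbohydrate metabolism shifted by step. Enzymes of the glyoxylate cycle and of gluconeogenesis rose in 8 of 11 and fell in 2, and took 0.226 ± 0.00653% of all counts in N2 and 0.343 ± 0.0105% in daf-2. The largest rise counted there, sodh-2 (3.26 ± 0.43), is an alcohol dehydrogenase gene that the list holds although it belongs to neither pathway. pck-1, the phosphoenolpyruvate carboxykinase that begins gluconeogenesis, had 126, 124 and 134 CPM in N2 and 325, 284 and 235 CPM in daf-2 (edgeR log2 fold change 1.14 ± 0.098, adjusted p = 2.07e-06). icl-1, which joins both enzymes of the glyoxylate cycle in 1 protein, had 308, 312 and 390.5 CPM in N2 and 726, 708 and 673 CPM in daf-2 (edgeR log2 fold change 1.06 ± 0.098, adjusted p = 1.79e-06). pck-3 fell (-4.01 ± 0.62) and stood at -8.12 without daf-2 replicate 1, with 0.906 ± 0.315 CPM in N2 and 0.0511 ± 0.0886 CPM in daf-2. Trehalose and glycogen genes rose in 9 of 15 and fell in 4. The trehalase gene tre-5 rose by 1.34 ± 0.22, and the trehalose-6-phosphate synthase gene tps-2 had 67.1, 66.0 and 84.3 CPM in N2 and 183, 179 and 169 CPM in daf-2 (edgeR log2 fold change 1.29 ± 0.11, adjusted p = 3.14e-06). Its paralogue tps-1 rose by 0.89 ± 0.049. Glycolysis had 8 rises among 19, led by pyk-2 (0.92 ± 0.043), a pyruvate kinase gene, and gpd-2 (0.92 ± 0.059), a glyceraldehyde-3-phosphate dehydrogenase gene nearly identical to gpd-3. pfk-1.2, a phosphofructokinase paralogue, had 86 reads in the 3 N2 libraries together and 3 in daf-2, a ratio of 27.0 with a 95% counting interval of 8.92 to 133.

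Genes of energy metabolism moved by small steps. The citric acid cycle list fell in 9 of 28 (32.1%, against 26.9% of all genes tested). It rose in 4 (14.3% against 27.4%), or in 2 with total counts as the only scaling. The largest fall on the list was aco-1 (-0.52 ± 0.048), a gene of the cytosolic and not the mitochondrial aconitase. Oxidative phosphorylation genes fell in 10 of 61 and rose in 4, and without daf-2 replicate 3 the split turned to 8 falls and 13 rises. Without daf-2 replicate 1 there were 18 falls, without daf-2 replicate 2 there were 7 rises, and with total counts as the only scaling there were 22 falls. The median was -0.02. The 1 large change there was cyc-2.2, a cytochrome c gene (-6.02 ± 0.39; -7.19 without daf-2 replicate 1). Mitochondrial DNA transcripts took 0.568 ± 0.13% of counts in N2 and 0.416 ± 0.126% in daf-2 (SD, n = 3, exact permutation p = 0.3, where 0.1 is the smallest p that 3 against 3 allow), and none of their 14 tested genes was called.

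Fat metabolism was divided between paralogues. Of 21 genes of fatty acid synthesis, desaturation and elongation 8 rose and 8 fell. fat-5, a palmitoyl-CoA desaturase gene, had 29.4, 28.5 and 35.4 CPM in N2 and 161, 145 and 143 CPM in daf-2 (edgeR log2 fold change 2.27 ± 0.087, adjusted p = 2.09e-10). fat-7, a stearoyl-CoA desaturase gene, had 119, 131 and 144 CPM in N2 and 26.6, 22.0 and 24.8 CPM in daf-2, a fall with no overlap (edgeR log2 fold change -2.42 ± 0.15, adjusted p = 1.03e-06), while its paralogue fat-6 rose by 0.91 ± 0.051. Per length, fat-6 had 231 CPM per kilobase of exon in N2 and 435 in daf-2, fat-7 117 CPM per kilobase of exon in N2 and 21.7 in daf-2 and fat-5 28.2 CPM per kilobase of exon in N2 and 136 in daf-2. Elongase genes fell at elo-8 (-0.97 ± 0.27), elo-5 (-0.87 ± 0.13) and elo-2 (-0.85 ± 0.13). Lipases and lipid droplet genes rose in 7 of 12 and fell in 3. The lysosomal lipase gene lipl-1 had 1.57, 1.33 and 1.61 CPM in N2 and 12.8, 15.4 and 16.7 CPM in daf-2, about 9.87-fold higher in daf-2 (edgeR log2 fold change 3.30 ± 0.17, adjusted p = 2.59e-11), and lipl-3 and lipl-4 rose by 2.17 ± 0.15 and 2.13 ± 0.21. lipl-6 fell (-1.90 ± 0.3). Fatty acid activation and beta-oxidation genes were 26 up and 21 down of 63, with acs-17 (1.67 ± 0.11) the largest rise and acs-18 (-5.19 ± 0.51; -8.75 without daf-2 replicate 1) the largest fall.

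Proteins that carry lipids rose in 10 of 17, and in the 1 that fell, far-6 (-0.15 ± 0.053), the call was lost without daf-2 replicate 1 or 3 and without N2 replicate 2 or 3, and in the 6 fits that each left out 1 library its highest edgeR adjusted p was 0.183. far-3, a fatty-acid and retinol-binding protein gene, had 17.4, 19.8 and 21.0 CPM in N2 and 237, 226 and 231 CPM in daf-2 (edgeR log2 fold change 3.58 ± 0.17, adjusted p = 1.59e-07), and far-7 and far-4 rose by 2.09 ± 0.24 and 1.46 ± 0.21. Yolk protein genes, expressed in the intestine to supply the oocytes, held 8.26 ± 0.5% of all counts in N2 and 9.21 ± 0.418% in daf-2 (exact permutation p = 0.2, where 0.1 is the smallest possible). vit-2 had 27485, 29477 and 32129 CPM in N2 and 33857, 37608 and 34319 CPM in daf-2 (edgeR log2 fold change 0.25 ± 0.067, adjusted p = 0.00361). The genes vit-3, vit-4 and vit-5 are near-identical copies, and reads may have been divided among them. vit-6 rose by 0.34 ± 0.064, vit-1 had 3074, 2965 and 2738 CPM in N2 and 1355, 1349 and 1597 CPM in daf-2 (edgeR log2 fold change -1.03 ± 0.095, adjusted p = 6.76e-07), and vit-5 had 16585 ± 1213 CPM in N2 and 18248 ± 763 CPM in daf-2 (log2 fold change 0.14, edgeR adjusted p = 0.0746), a difference called in limma-voom, without a filter and without daf-2 replicate 1 or N2 replicate 3. vit-4 was called lower (-0.22 ± 0.076), but not without daf-2 replicate 1 or 2 or without N2 replicate 2 or 3. Aquaporin genes fell in 6 of 11, with aqp-8 at 20.2, 20.1 and 20.7 CPM in N2 and 8.39, 8.58 and 8.45 CPM in daf-2 (edgeR log2 fold change -1.26 ± 0.071, adjusted p = 3.13e-12). Among 17 carriers of amino acids and peptides 5 rose and 6 fell, or 29.4% and 35.3%, against 27.4% and 26.9% of all genes tested. slc-36.5 rose most (2.52 ± 0.12), and pept-1, the intestinal peptide transporter, had 89.1, 84.0 and 74.1 CPM in N2 and 16.8, 16.8 and 21.3 CPM in daf-2 (edgeR log2 fold change -2.17 ± 0.12, adjusted p = 2.15e-08).

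The machinery of protein synthesis moved by small steps. Cytosolic ribosomal proteins rose in 35 of 80 and fell in 6, with a median of 0.12, and the count of rises turned on single libraries: 61 rose without daf-2 replicate 3, and 19, 21 and 22 without daf-2 replicate 1, N2 replicate 1 and N2 replicate 2. The falls numbered 3 without daf-2 replicate 2 or 3. The largest rises were rps-27 (0.35 ± 0.065) and rpl-25.1 (0.34 ± 0.062). Translation factors fell in 14 of 33, with inf-1, the eIF4A gene, at -0.45 ± 0.052 and ifet-1, an eIF4E-binding repressor, at -0.41 ± 0.057, and rose in 4 (2 with the other scalings, in DESeq2 and without daf-2 replicate 1 or N2 replicate 2). Mitochondrial ribosomal proteins fell in 21 of 65, led by mrps-31 (-0.54 ± 0.063), and rose in 6 (3 without daf-2 replicate 1 or N2 replicate 1 or 2, 10 without daf-2 replicate 3 and 11 without N2 replicate 3). Their falls were 32.3%, near the 26.9% of all genes tested, and their rises 9.23% against 27.4%. The proteasome had 5 falls and 1 rise among 33, or 15.2% and 3.03%, below the shares of all genes tested. The falls numbered 17 with total counts as the only scaling, 10 in DESeq2, 9 without daf-2 replicate 1, and 3 without daf-2 replicate 2 or N2 replicate 1 or 2. Without daf-2 replicate 3 there were 6 rises. The gene pas-7 fell most (-0.22 ± 0.044).

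Autophagy genes rose in 14 of 27 and fell in 1 (2 without daf-2 replicate 2, 4 with total counts as the only scaling). epg-2, which brings protein aggregates of the embryo to autophagy, had 15.4, 13.8 and 13.9 CPM in N2 and 39.0, 39.1 and 49.5 CPM in daf-2 (edgeR log2 fold change 1.56 ± 0.086, adjusted p = 1.87e-11). The p62 homologue sqst-1 rose by 1.09 ± 0.08 and atg-2 by 0.78 ± 0.11. lgg-1, the Atg8 homologue that marks autophagosomes, had 302, 309 and 317 CPM in N2 and 484, 478 and 489.9 CPM in daf-2 (edgeR log2 fold change 0.65 ± 0.046, adjusted p = 1.05e-10). Proteases of lysosome and gut were 12 up and 6 down of 24. cpr-2, a cathepsin B-like gene, rose by 4.24 ± 0.47 (4.84 without N2 replicate 1), cpr-5 fell (-2.17 ± 0.1), and asp-1, an abundant gut aspartyl protease, had 1905, 1881 and 1839 CPM in N2 and 966, 899 and 777 CPM in daf-2 (edgeR log2 fold change -1.09 ± 0.06, adjusted p = 2.56e-12). F-box A genes, of which many encode candidate substrate adaptors of ubiquitin ligases, rose in 50 of 121 and fell in 11.

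Defence genes changed within each family in both directions. Lysozymes rose in 8 of 14 and fell in 5. ilys-6 had 0 reads in the 3 N2 libraries together and 39 in daf-2, at least 13.8-fold higher against a floor of 3 reads over the group. ilys-3 rose by 5.28 ± 0.63, and lys-7 had 137, 142 and 146 CPM in N2 and 900.3, 843 and 744 CPM in daf-2 (edgeR log2 fold change 2.55 ± 0.15, adjusted p = 4.19e-07). ilys-5, another invertebrate-type lysozyme gene, had 684, 679 and 627 CPM in N2 and 126, 109 and 137 CPM in daf-2, a fall with no overlap (edgeR log2 fold change -2.42 ± 0.096, adjusted p = 9.07e-10), and lys-5 was at -3.84 ± 0.39. Saposin-like proteins, relatives of pore-forming amoebapores, rose in 13 of 25 and fell in 4. spp-9 had 0.0681 ± 0.0577 CPM in N2 and 30.4 ± 6.39 CPM in daf-2, the largest rise by fold of all genes tested (8.77 ± 0.54, and 9.62 without N2 replicate 3). C-type lectins fell in 50 of 120 and rose in 37, but among genes with at least 1 CPM in 6 libraries 25 fell and 32 rose. clec-61 rose by 4.47 ± 0.4, and clec-153 had 58 reads in the 3 N2 libraries together and 0 in daf-2, at least 18.2-fold lower against the same floor. Epidermal antimicrobial peptides of the fip, fipr and cnc families were 19 up and 10 down of 36, with fipr-23 (4.94 ± 0.32) and cnc-11 (4.77 ± 0.26) the largest rises. Of 35 infection response genes, 20 rose against 5 that fell, and pals-26, a member of the family tied to the intracellular pathogen response, rose by 4.35 ± 0.19. Secreted proteins of the SCP/TAPS and venom-like families (scl and vap genes) rose in 8 of 15 and fell in 6, or in 4 and 3 among genes with at least 1 CPM in 6 libraries. scl-20 rose by 5.42 ± 0.71 (4.83 without daf-2 replicate 1) and vap-2 by 2.34 ± 0.22, while vap-1 fell (-3.14 ± 0.17).

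Genes of sperm fell together, and the major sperm proteins had the lowest median of the 67 lists. These proteins, which drive the crawling of the sperm and signal to oocytes, had genes that fell in 27 of 27 tested, with a median log2 fold change of -4.96, and took 0.0196 ± 0.00335% of all counts in N2 and 0.000662 ± 0.000173% in daf-2 (SD, n = 3). The members are near-identical copies among which reads may have been divided. msp-10 had 205 reads in the 3 N2 libraries together and 2 in daf-2, a ratio of 96.4 with a 95% counting interval of 26.3 to 801, and msp-152 fell (-6.20 ± 0.39). msp-81 had 14.1, 9.76 and 8.69 CPM in N2 and 0.205, 0.205 and 0.0828 CPM in daf-2, every daf-2 library being far below every N2 library (edgeR log2 fold change -6.03 ± 0.29, adjusted p = 2.4e-11). Other sperm genes fell in 32 of 46 and rose in 2, with ssp-16 at 197 reads in the 3 N2 libraries together and 3 in daf-2, a ratio of 61.7 with a 95% counting interval of 20.8 to 302. Among genes of sex determination 8 of 15 fell and none rose (1 rose without N2 replicate 2), with tra-1, the last regulator of the cascade, at -0.42 ± 0.091 and the PUF repressor genes fbf-2 and fbf-1 at -0.40 ± 0.08 and -0.30 ± 0.062. The sperm markers given above are mostly the major sperm protein genes themselves, so they are no separate measure beside these lists. Fewer sperm cannot be told apart from less RNA per cell.

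Genes of the female germ line moved less. Oocyte and eggshell genes fell in 14 of 31 and rose in 8, with 1.95 ± 0.0134% of all counts in N2 and 1.94 ± 0.0404% in daf-2. cpg-7 and cpg-3, chondroitin proteoglycan genes, rose by 0.93 ± 0.14 and 0.71 ± 0.047, cpg-9 and lin-41, a regulator of oocyte maturation, were at -0.43 ± 0.067 and -0.37 ± 0.051, and rme-2, the yolk receptor of oocytes, had 744, 691 and 696 CPM in N2 and 589, 576 and 568 CPM in daf-2 (edgeR log2 fold change -0.30 ± 0.045, adjusted p = 9.13e-06). Meiosis and germ granule genes fell in 24 of 39 with a median of -0.16. glp-1, the Notch receptor of germline stem cells, was at -0.35 ± 0.039. The list had 1 rise, coh-3 (0.10 ± 0.039), not called without N2 replicate 1 (edgeR adjusted p = 0.136) or N2 replicate 2 or under 6 of the other settings. Without daf-2 replicate 2 there were 2 rises and without N2 replicate 3 there were 3.

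Genes first transcribed in the embryo rose in 29 of 45 and fell in 1, with a median of 0.83. The largest were sdz-11 (2.48 ± 0.37), of a group named for zygotic expression that needs skn-1, and the T-box gene tbx-8, which had 0.357, 0.181 and 0.242 CPM in N2 and 1.3, 1.35 and 1.55 CPM in daf-2 (edgeR log2 fold change 2.35 ± 0.29, adjusted p = 5.43e-07). hch-1, the protease that opens the eggshell at hatching, had 0.0397, 0.0 and 0.0807 CPM in N2 and 3.17, 2.52 and 3.73 CPM in daf-2. Only a few reads were seen in N2, all daf-2 libraries were above 2 CPM, and the fold change was 6.14 ± 0.42 (6.87 without N2 replicate 3; edgeR adjusted p = 1.68e-10). The zygotic embryo markers (5 of 7 up) share members with this list and are no separate measure. Worms that hold more or older embryos cannot be told apart from a change of level per embryo. Histone genes, of which the replication-dependent ones lack the poly(A) tail that an mRNA kit selects, were 7 up and 9 down of 34, but 7 and 6 without N2 replicate 1 and 10 and 6 without daf-2 replicate 3. The main shares, 20.6% and 26.5%, were no higher than the 27.4% and 26.9% of all genes tested. his-24, a linker histone gene, rose by 1.73 ± 0.11.

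**Figure D3:**
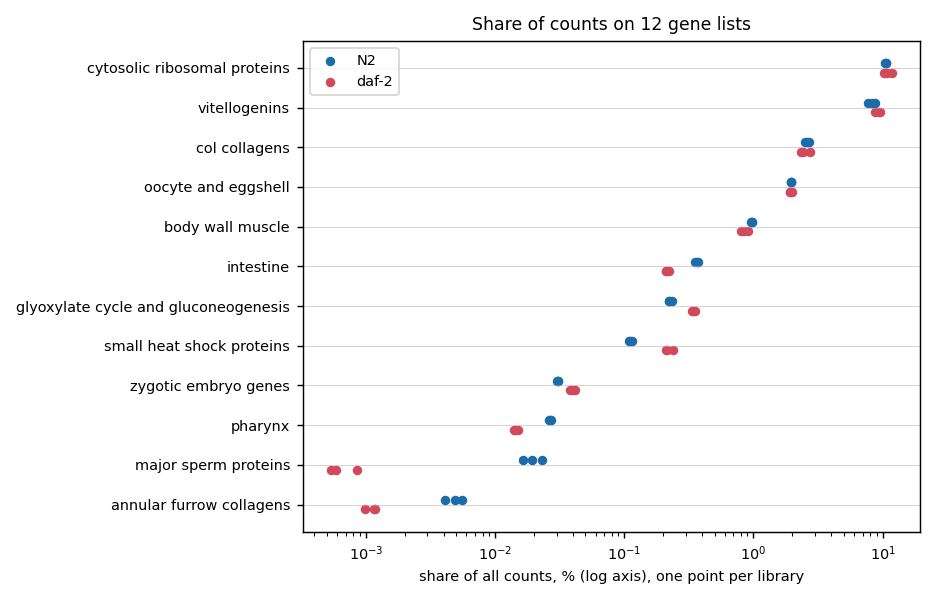
Share of all counts taken by 12 gene lists, in percent on a log axis, with 1 point for each of the 3 N2 (blue) and 3 daf-2 (red) libraries. Major sperm proteins fell from 0.0196% to 0.000662% on average, while the col collagens overlapped at 2.61% and 2.5%.

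Cuticle genes fell widely. Of 128 tested col collagen genes 86 fell and 22 rose, with a median log2 fold change of -1.60. Their share of reads nevertheless overlapped between the groups, at 2.61 ± 0.0904% of all counts in N2 and 2.5 ± 0.233% in daf-2 (exact permutation p = 0.5, smallest possible 0.1). Of the 3 members among the genes that gained or lost the most CPM, col-119 had 2022 ± 95.9 CPM in N2 and 1663 ± 166 CPM in daf-2 (-0.28 ± 0.068), col-140 had 1968 ± 78.6 CPM in N2 and 1617 ± 216 CPM in daf-2 (-0.28 ± 0.07), and col-95, which rose, had 952 ± 60.9 CPM in N2 and 1725 ± 195 CPM in daf-2 (0.86 ± 0.09). The largest falls by fold were col-41 (-7.19 ± 0.23) and col-17 (-6.42 ± 0.22), and the largest rises col-50 (6.66 ± 0.38) and col-36 (5.34 ± 0.37). All 6 annular furrow collagens, which form the circumferential grooves of the cuticle, fell. dpy-8 was at -4.05 ± 0.16, and dpy-7 had 8.71, 5.87 and 6.11 CPM in N2 and 1.56, 1.08 and 1.3 CPM in daf-2 (edgeR log2 fold change -2.40 ± 0.18, adjusted p = 6.63e-10). Of 16 other named collagens 14 fell and 2 rose, with a median of -4.41. rol-6, a collagen gene whose mutants roll, had 21.3, 16.8 and 16.3 CPM in N2 and 0.384, 0.176 and 0.0828 CPM in daf-2 (edgeR log2 fold change -6.36 ± 0.22, adjusted p = 2.5e-14; -7.10 without daf-2 replicate 1), and sqt-1, its partner in the same phenotype, was at -6.05 ± 0.23 (-6.71 without daf-2 replicate 1). dpy-14, a collagen gene used early in development, went the other way, with 0.834, 0.663 and 0.565 CPM in N2 and 13.4, 10.4 and 15.8 CPM in daf-2 (edgeR log2 fold change 4.23 ± 0.31, adjusted p = 5.5e-07), and dpy-17 rose by 1.33 ± 0.074.

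Genes of moulting fell in 19 of 31 and rose in 3. qua-1, a hedgehog-related gene needed for moulting, had 10.5, 8.82 and 8.37 CPM in N2 and 0.563, 0.907 and 0.414 CPM in daf-2 (edgeR log2 fold change -3.89 ± 0.18, adjusted p = 1.92e-13), mlt-9 was at -2.84 ± 0.2, and lin-42, the Period homologue that times the moults, at -2.36 ± 0.12. mlt-3 was among the rises (0.54 ± 0.091). Hedgehog-related genes fell in 19 of 38 and rose in 4, with grl-7 at -4.45 ± 0.22 and grl-17 at 2.33 ± 0.3, whereas patched-related genes were 9 up and 10 down of 27 and turned to 10 and 9 without N2 replicate 3 and to 9 and 8 without daf-2 replicate 1. The patched-related shares were 33.3% and 37.0%, against 27.4% and 26.9% of all genes tested. Cuticlins rose in 9 of 31 (29.0%, near the 27.4% of all genes tested) and fell in 6 (19.4% against 26.9%), or in 3 without N2 replicate 1. Their extremes were cut-3 at 3.00 ± 0.31 and cutl-18 at -4.08 ± 0.24. Astacin proteases had 8 rises, hch-1 and then nas-5 (1.50 ± 0.12) the largest, and 10 falls, led by nas-15 (-3.70 ± 0.28), of 31, but 8 rises and 2 falls among genes with at least 1 CPM in 6 libraries. Of the 31, 25.8% rose and 32.3% fell, near the 27.4% and 26.9% of all genes tested. The moulting hypodermis markers share members with the cuticle lists, dpy-7 among them, so they are no separate measure. The sperm markers fell in the same libraries as these cuticle genes, and their part in the result was not tested.

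Most genes on the body wall muscle and pharynx lists fell. Body wall muscle genes fell in 18 of 31 and rose in 1 (3 without daf-2 replicate 3), with a median of -0.20. unc-52, the perlecan of the basement membrane, had 129.9, 131 and 123 CPM in N2 and 73.1, 82.2 and 75.3 CPM in daf-2 (edgeR log2 fold change -0.74 ± 0.051, adjusted p = 9.52e-11), and the giant proteins ttn-1 and unc-22 were at -0.63 ± 0.077 and -0.63 ± 0.12. The rise was hlh-1, the MyoD homologue (0.58 ± 0.16), which is also transcribed in the embryo. Pharynx genes fell in 21 of 23, with abu-6 at 44 reads in the 3 N2 libraries together and 1 in daf-2, a ratio of 41.4 with a 95% counting interval of 7.05 to 1671, phat-4 at -3.28 ± 0.24 and abu-12 at -2.90 ± 0.34. There were 2 rises, phat-2 (0.56 ± 0.23) and phat-8 (0.33 ± 0.13). Neither was called without daf-2 replicate 1 or 2 or without N2 replicate 1 or 2, and phat-2 was not called without N2 replicate 3 either. Intestinal genes fell in 11 of 16. ifp-1, an intermediate filament gene, was at -3.01 ± 0.15, pept-1 at -2.17 ± 0.12, nhx-2, a sodium-proton exchanger gene, at -1.72 ± 0.086 and pho-1, an acid phosphatase gene, at -1.59 ± 0.11. ges-1, the gut esterase, had 23.9, 22.1 and 21.8 CPM in N2 and 50.9, 52.4 and 57.5 CPM in daf-2, a rise with no overlap (edgeR log2 fold change 1.24 ± 0.065, adjusted p = 1.22e-12), and elt-7, a GATA factor of the gut, rose by 0.61 ± 0.11.

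Neuropeptide genes rose, and genes of the synapse had shares of calls no higher than all genes tested. Of 30 genes for FMRFamide-like peptides, 20 rose with no fall, flp-34 by 1.66 ± 0.13 and flp-6 by 0.89 ± 0.068. Of 67 neuropeptide-like protein genes, 40 rose and the only fall, nlp-26, was at -0.68 ± 0.095 (2 falls without daf-2 replicate 3), with a median of 0.44. nlp-39 had 0.159, 0.0301 and 0.135 CPM in N2 and 5.11, 4.8 and 4.78 CPM in daf-2 (edgeR log2 fold change 5.36 ± 0.38, adjusted p = 2.73e-08), and nlp-25 rose by 1.73 ± 0.24. Genes of neuropeptide processing and dense-core vesicles rose in 8 of 17, kpc-1, a furin-like protease gene, by 1.26 ± 0.13 and the convertase gene egl-3 by 0.53 ± 0.046, and fell in 2 (1 without daf-2 replicate 1 or 2 or N2 replicate 2). Pan-neuronal and synaptic vesicle genes rose in 5 of 24 (3 without N2 replicate 1 or 2 or with total counts as the only scaling) and fell in 6. These shares were 20.8% and 25.0%, against 27.4% and 26.9% of all genes tested. snb-1, synaptobrevin, rose by 0.28 ± 0.046, and rab-3, a synaptic vesicle GTPase gene, had 7.74, 8.58 and 6.65 CPM in N2 and 3.32, 4.83 and 4.61 CPM in daf-2 (edgeR log2 fold change -0.85 ± 0.14, adjusted p = 3.58e-05). Chemoreceptor genes are mostly too low to measure in whole worms: 122 of 1317 were tested, of which 48 rose (93 without a filter) and 9 fell. Of 55 cilium genes, 11 rose, with falls in 6 (7 and 2 without daf-2 replicate 1). That is 20.0% and 10.9%, below the shares of all genes tested. osm-3, the kinesin that builds the outer sensory cilium, had 2.02, 1.69 and 1.78 CPM in N2 and 8.62, 6.06 and 7.32 CPM in daf-2 (edgeR log2 fold change 1.99 ± 0.14, adjusted p = 1.39e-10). The largest fall on the list, osm-8 at -2.91 ± 0.45 (-3.50 without daf-2 replicate 1), is a mucin-like gene of the epidermis and not of the cilium.

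Among all well-expressed genes tested (mean log2 CPM 3 or more, no overlap of the groups), in a list or not, the largest called rise of a named gene was rnh-1.3, a ribonuclease H gene, with 4.48 ± 0.359 CPM in N2 and 64.9 ± 3.86 CPM in daf-2 (SD, n = 3; 3.85 ± 0.13). It was followed by ttr-26, a transthyretin-related gene (3.68 ± 0.22), dod-3, far-3 and dct-8, then nnt-1 (3.09 ± 0.13), the nicotinamide nucleotide transhydrogenase of mitochondria, mtl-1, sod-3 and ftn-1, and saeg-2 (2.92 ± 0.093), hil-1 (2.85 ± 0.12), a linker histone gene, and skr-12 (2.78 ± 0.12), a Skp1-related gene. The falls at the same expression were mostly collagens: col-147 (-4.59 ± 0.23), col-81 (-3.81 ± 0.24), col-129, col-135, col-125, col-107, col-39 and col-144 made up 8 of the first 12, beside dod-24, ram-2, ilys-5 and fat-7. By CPM the gains were dominated by yolk: vit-6 gained 6989.5 CPM and vit-2 5564 CPM, followed by vit-5, whose difference was not called, and the ribosomal RNA gene rrn-3.1, which had 349 ± 27.0 CPM in N2 and 1626 ± 136 CPM in daf-2 (2.22 ± 0.13). Then came sip-1, far-2 (0.37 ± 0.056), col-95 and lys-7. The losses were led by vit-1, asp-1 and ilys-5, with cgh-1 (-0.21 ± 0.055), an RNA helicase gene of the germ line, vig-1 (-0.28 ± 0.047) and eef-2, the translation elongation factor 2 gene, whose call (-0.13 ± 0.052) was lost without daf-2 replicate 3 (edgeR adjusted p = 0.242), without any of the 3 N2 libraries and in the fit of only the 6 libraries.

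Calls were spread unevenly over the chromosomes. On X 33.0% of 2229 tested genes rose and 17.8% fell, and on V 33.7% of 3174 rose and 23.8% fell. On I 20.9% of 2511 rose and 31.7% fell, and on III 22.3% of 2395 rose and 28.4% fell. On IV 25.7% of 2611 rose and 31.3% fell, and on II the shares were close at 27.9% and 28.0% of 2732. The median log2 fold change was 0.10 on X, 0.07 on V and between -0.04 and 0.00 on the others. This is a description with no test. Germline-expressed genes are known to be sparse on X, and the germline lists above moved in the same comparison, and their part in the result was not tested. By class, 4116 of 14936 protein-coding genes rose and 4106 fell, and among 528 pseudogenes 137 rose and 83 fell. Of 22 antisense RNA genes 10 rose and 1 fell, but the strand setting of the counting is not given, so that reads of the opposite gene may be among them.

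**Figure D4:**
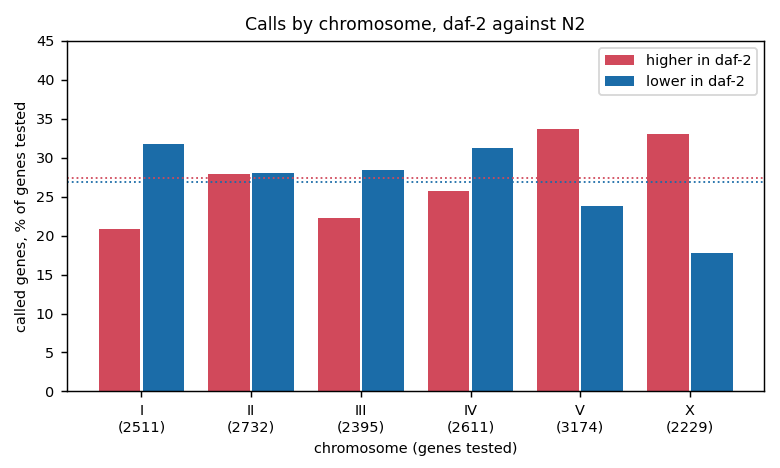
Share of tested genes called higher (red) or lower (blue) in daf-2 on each nuclear chromosome, in percent, with the number tested in brackets and dotted lines for all genes tested (27.4% and 26.9%). X and V have more rises than falls, and I, III and IV more falls than rises.

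The same contrast in worms labelled with the spr mutations, spr-4;spr-3;daf-2 against spr-4;spr-3, shares no library with daf-2 against N2. Both nevertheless came from 1 fit with a common filter, scaling and estimate of spread. In that contrast 25.8% of all genes tested were called higher and 23.5% lower. Of the 1342 genes that rose over 2-fold in daf-2 against N2, 1051 (78.3%) were also called higher there and 7 lower. Of the 1337 that fell over 2-fold, 472 (35.3%) were called lower there and 49 higher. A test of the difference between the contrasts called 4523 of all genes (28.7%), 467 of the strong rises (34.8%) and 898 of the strong falls (67.2%). The median log2 fold change of the strong rises was 1.55 against N2 and 1.1 with the spr label, and that of the strong falls -2.43 and -0.45. The strong rises and falls were chosen by their size in daf-2 against N2, which by itself favours smaller values in the other contrast and more called differences, so nothing is read from these shares and medians.

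**Figure D5:**
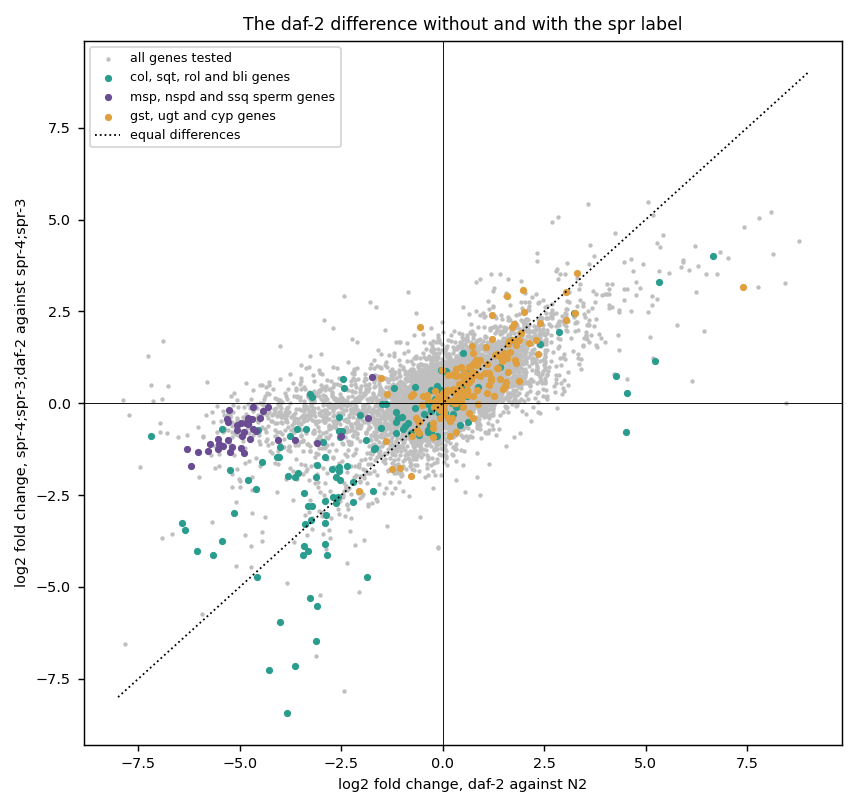
Log2 fold change of each tested gene in daf-2 against N2 (horizontal) and in spr-4;spr-3;daf-2 against spr-4;spr-3 (vertical), with cuticle collagens, sperm genes and detoxification genes coloured and a dotted line where both are equal. For the major sperm proteins the median was -4.96 on the horizontal axis and -0.99 on the vertical axis.

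By list, the median of the major sperm proteins was -4.96 against N2 and -0.99 with the spr label, with the difference called in 27 of 27. The share of these genes was lower in the control of that contrast, at 0.00661 ± 0.00135% of counts in spr-4;spr-3 against 0.0196 ± 0.00335% in N2 (SD, n = 3). It was higher in the daf-2 arm, at 0.00378 ± 0.00116% in spr-4;spr-3;daf-2 against 0.000662 ± 0.000173% in daf-2. For the annular furrow collagens, where the median went from -2.30 to -0.53, the control was also lower, at 0.0013 ± 4.25e-05% in spr-4;spr-3 against 0.00485 ± 0.000758% in N2. Their share in the daf-2 arms was 0.00133 ± 0.000169% in spr-4;spr-3;daf-2 and 0.0011 ± 0.000108% in daf-2. Other named collagens had medians of -4.41 and -2.30, zygotic embryo genes 0.83 and 0.26, and pharynx genes -1.39 and -0.47. Insulin-like peptides had 0.83 and 0.91, cytochromes P450 0.47 and 0.57, neuropeptide-like proteins 0.44 and 0.59, and glutathione S-transferases 0.54 and 0.36. The part of these levels, in the controls or the daf-2 arms, in the difference between the contrasts was not tested.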

How the data were processed

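Whole-worm RNA was sequenced as pairs of 75 bp reads from stranded mRNA libraries made with 500 ng of total RNA, per the labels' protocols. The deposited values are raw counts of reads per gene. Reads were aligned with STAR to WBcel235 and counted with featureCounts 1.5.1, per the submitters' processing notes; the sources used here give neither the strand setting nor what was done with reads that match several places. Gene names and positions came from a WBcel235 annotation, release 115, which names 43720 of the 46739 genes; 0 columns belonged to other samples and 0 rows named no gene.

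Genes were filtered by filterByExpr (minimum count 10), which left 15764, scaled by TMM and fitted in edgeR 4.0.16 (R 4.3.3; quasi-likelihood, robust, two-sided) to all 12 libraries, with Benjamini-Hochberg adjusted p-values over all genes. The other 6 libraries thus entered the filter, the scaling and the estimate of spread, and a fit of only the 6 compared libraries tested 15143 genes. Each SE was taken as |log2 fold change| over the root of the F statistic. Shares of counts used an exact permutation test. Intervals and floors cover counting error only. The fit was tested on simulated data, where the share of false calls was somewhat above the 0.05 threshold and many changes of 1.5-fold were missed. The simulation changed far fewer genes than were called here and used an assumed spread, so these shares need not hold for the real data.

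The comparison, the 67 gene lists and the genes were chosen with earlier results of these data known. The text names daf-2, the insulin receptor pathway (1 member is not reported here), the 12 largest called rises and falls with no overlap and a mean log2 CPM of at least 3, the 8 largest gains and losses of CPM and, for each list, its 5 largest called rises and 5 largest called falls at most. For that mean 0.1 CPM was added, after a first reading of the rule as the log2 of the mean had been run and seen. mtl-2 and vit-3, outside this rule, and the 45 genes given library by library were picked after their values were seen. Alternatives were RLE factors, total counts, other filters, DESeq2 1.42.0, limma-voom (limma 3.58.1), a replicate block, the 6 libraries alone, a test against a 1.5-fold change and leaving out each library. Figures used matplotlib 3.10.9.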

Additional observations from a re-analysis of the deposited data

Results flagged for a closer look

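Groups of 3 libraries are too small for a check of single outlying samples, so the one check made was whether the daf-2 difference changed with the spr label. It was read for the 45 genes given library by library, and 27 of them had a called difference in edgeR, against 28.7% of all genes tested; the 45 were picked with their values in view. Each value below is the log2 fold change of spr-4;spr-3;daf-2 against spr-4;spr-3 minus that of daf-2 against N2. No explanation was weighed.

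hch-1 differed by -5.54 (edgeR adjusted p = 5.61e-07), with 1.12 ± 0.339 CPM in spr-4;spr-3 and 1.72 ± 0.44 CPM in spr-4;spr-3;daf-2 (SD, n = 3). ilys-5 differed by -5.40 (3.5e-09), and its log2 fold change was -2.42 against N2 and -7.82 with the spr label, with 396 ± 31.1 CPM in spr-4;spr-3 and 1.76 ± 0.46 CPM in spr-4;spr-3;daf-2. msp-81 differed by 4.70 (7.3e-07), with 3.46 ± 0.575 CPM in spr-4;spr-3 and 1.37 ± 0.248 CPM in spr-4;spr-3;daf-2. dpy-14 differed by -3.44, qua-1 by 3.16, rol-6 by 2.90, tbx-8 by -2.03 and dpy-7 by 1.47.

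The positive log2 fold change was smaller with the spr label for the insulin-like gene ins-10 (-1.51) and for the stress, iron and defence genes hsp-70 (-1.07), ftn-1 (-1.03), gst-29 (-1.01), lys-7 (-0.81), sod-3 (-0.68) and sip-1 (-0.29). It was also smaller for epg-2 (-1.40), far-3 (-1.08), osm-3 (-0.57), fat-5 (-0.40) and ges-1 (-0.29). The negative log2 fold change was nearer 0 for pept-1 (0.82), asp-1 (0.73) and hsp-60 (0.63) and farther from 0 for vit-1 (-0.86) and rme-2 (-0.32). vit-2 differed by -0.40, with a log2 fold change of 0.25 against N2 and -0.16 with the spr label, and rab-3 by 1.01, with -0.85 and 0.15.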

How the results depend on the processing

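Of 8560 called genes, 2810 passed the test against a 1.5-fold change (1515 higher, 1295 lower), and of 4523 called for the difference with the spr label, 970 did. Genes called and over 2-fold numbered 2679, and 1267 where at least 1 CPM in 6 libraries was required, which tested 12274 genes. The counts of calls stayed within 1.5 times under the other settings: DESeq2 called 8092, limma-voom 8573, RLE factors 8646, total counts 8874, no filter 8932 and the 6 libraries alone 7919. Leaving out 1 library gave 7540 to 8375 calls, and 3585 to 4780 for the difference. The rises made up 50.5% of calls, and 42.3% with total counts as the only scaling. Same-numbered libraries had residual correlations of 0.07, -0.02 and -0.06 over all genes. Such values show no pairing common to most genes, and they cannot exclude one that acts on some genes only. A fit with the replicate block called 8383 genes, and 4316 for the difference.

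No named gene reversed. Under the 1.5-fold test 235 of 553 lost their call, and under any other setting at most 33. Of 134 list counts, 101 moved by over 1.5 times under the 1.5-fold test and 22 with at least 1 CPM in 6 libraries. The log2 ratio of shares, daf-2 over N2, turned from 0.00 to 0.01 for infection response genes and for oocyte and eggshell genes without rRNA and vitellogenins in the total, and their libraries overlapped. Leaving out ribosomal RNA genes, a choice made after seeing the data, changed no call of a named gene. A planned count of promoter motifs was not run. Depth limits genes with few reads, such as single chemoreceptors, of which 122 of 1317 could be tested.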
